A study of Mus musculus with 2 samples.

Results

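Among 14123 retinal nuclei annotated by the authors at postnatal day 21, 221 carried both the name retinal ganglion cell (RGC) and the cluster number 15. These were the members described here, and they were chosen from the deposited annotation alone. The Tet tcKO library contributed 217 of them and the Cre- library 4. Tet tcKO mice were floxed at Tet1, Tet2 and Tet3, the genes of the TET enzymes that oxidise methylated cytosine. They carried the Chx10-Cre-GFP transgene, which is active in retinal progenitors and mosaic from cell to cell. To reduce this mosaicism, the paper states, Cre-positive animals were in-crossed so that all offspring had 2 working copies of the transgene. Controls lacked Cre and are labelled WT. Both genotypes are labelled as strain C57 BL/6J, and whole retinas of several animals were pooled. Each genotype was dissociated in 2 pools that are not told apart in the files, so it is treated as 1 library.

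RGCs are the output neurons of the retina. They receive glutamate from bipolar cells and GABA, glycine and acetylcholine from amacrine cells, release glutamate themselves, and send their axons through the optic nerve to the brain. Mouse RGCs fall into many types, which differ in dendritic layering, light response, brain targets and transcription factors such as Foxp2, Tbr1, Eomes and the POU4F family.

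With 1 library per genotype, and with clusters drawn from the same counts that are compared, no difference below was tested and no p-value is given. Levels are UMIs (unique transcript molecules) summed over the nuclei of a population and scaled to counts per 1000000 (CPM). Log2 ratios compare levels, with cluster 15 in the numerator. Intervals in parentheses are exact at 95% and cover counting error only, not the spread between nuclei, animals or preparations. The 2 libraries held 7357 Cre- nuclei and 6766 Tet tcKO nuclei. Median UMIs per nucleus were 1107 and 1836.5, 1 barcode occurred in both libraries, and it was not in cluster 15. The doublet caller used here called 0 nuclei in either library, so doublets were not removed. Of cluster 15 nuclei, 2.76% were among the 5% of the Tet tcKO library with the highest doublet scores.

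Cluster 15 nuclei were the second largest group of RGCs in the Tet tcKO library and nearly absent from the Cre- library. They made up 30.8% (27.4 to 34.4) of 704 RGC nuclei in Tet tcKO and 0.705% (0.193 to 1.80) of 567 in Cre-. As shares of all nuclei these were 3.21% and 0.0544%. Cluster 8 moved the other way, at 4.12% of Tet tcKO and 69.5% of Cre- RGC nuclei. Cluster 2 held 26.3% and 19.6%, and cluster 31 held 38.8% and 10.2%. Because clusters were drawn over both libraries, an RGC type with altered transcripts and a change in the number of cells of a type cannot be told apart from these shares.

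**Figure D1:**
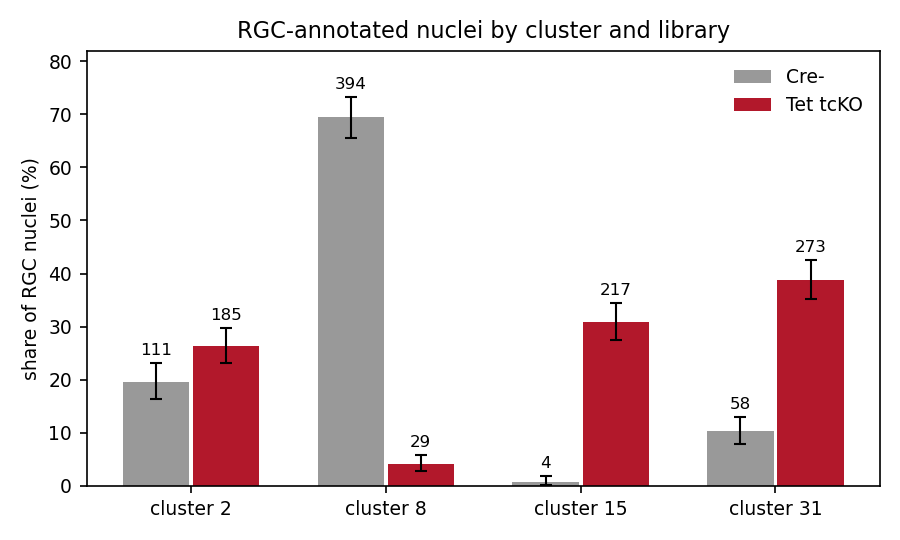
Share of RGC-annotated nuclei (%) in each of the 4 RGC clusters, by library (grey, Cre-, red, Tet tcKO), with exact 95% intervals and the number of nuclei above each bar. Cluster 15 holds 217 Tet tcKO nuclei and 4 Cre- nuclei, and cluster 8 holds 29 and 394.

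The 217 Tet tcKO nuclei were deep for this series. They held 810359 UMIs, with a median of 3179 UMIs (quartiles 2137 and 4675) and 1760 genes per nucleus. Tet tcKO cluster 2 had a like depth, with 185 nuclei at a median of 3561 UMIs. Tet tcKO cluster 31 had 273 nuclei at 1564 UMIs, and Tet tcKO cluster 8 had 29 nuclei at 1554 UMIs, so its levels are the least precise. Mitochondrial genes took 0.836% of UMIs in cluster 15, 0.768% in cluster 2 and 1.16% in cluster 31. Depth therefore differed between clusters 15 and 31 together with every gene difference between them, and its part in those differences was not tested.

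Most RGC class markers stood above the other retinal nuclei in cluster 15, and the neurofilament genes Nefl and Nefh did not. Rbpms, an RNA-binding protein that marks RGCs as a class, stood at 1079 CPM (1008 to 1152) in cluster 15, against 37.6 CPM in Tet tcKO amacrine nuclei and 60.9 CPM in all nuclei other than RGCs. Slc17a6, the vesicular glutamate transporter VGLUT2 of RGCs, stood at 83.9 CPM (65.2 to 106), against 4.70 CPM in amacrine nuclei. Nrn1, a surface protein of neurites, stood at 114 CPM against 7.68, and Ebf3, a transcription factor of RGCs, at 263 against 55.9. Of the POU4F factors, Pou4f1 (BRN3A) reached 74.04 CPM (56.5 to 95.3), against 5.98 CPM in amacrine nuclei. Pou4f2 (BRN3B) stood at 12.3 CPM (5.92 to 22.7) and Pou4f3 (BRN3C) gave 0 UMIs, which allows at most 3.70 CPM, where the limit for a count of 0 is set at 3 counts here and below. Over all nuclei other than RGCs, Isl1, a LIM factor also of bipolar and amacrine cells, had a log2 ratio of 0.36 (0.12 to 0.60), Nefl -0.13 (-0.54 to 0.26) and Nefh 0.02 (-0.84 to 0.77). Summed over the 14 RGC markers, the level was 2129 CPM, of which Rbpms made 1079, close to 2270 in cluster 2 and 2068 in cluster 31, with 374 in amacrine nuclei.

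Markers of other retinal cells were present at low levels in cluster 15, as in its neighbours. The 8 amacrine markers summed to 295 CPM in cluster 15, 266 in cluster 2, 373 in cluster 31 and 1564 in amacrine nuclei. Gad2, the GABA-synthesising enzyme, was higher in cluster 15 (38.3 CPM (25.99 to 54.3)) than in cluster 2 (11.2 CPM (5.12 to 21.2)) and reached 122 CPM in amacrine nuclei. The vesicular GABA transporter Slc32a1 stood at 7.40 CPM (2.72 to 16.1) in cluster 15. The 6 starburst markers summed to 44 CPM against 397 in amacrine nuclei. Rod markers summed to 749 CPM, cone markers to 871, bipolar markers to 758, Müller markers to 188, and horizontal markers to 101. Each of these sums was within 2-fold of the value in cluster 2 (777, 792, 723, 167 and 185). Vascular, microglial and astrocyte or pigment epithelium markers summed to 84, 14 and 6 CPM. The part of such transcripts in the differences below was not tested.

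Of the 4 genes taken as markers of the cluster, 3 were higher in it than in the remaining Tet tcKO RGC nuclei and Slc17a6 was not. D130079A08Rik, a long noncoding RNA, stood at 824 CPM (763 to 889) in cluster 15. The other Tet tcKO clusters held 574 CPM (cluster 31), 321 (cluster 2) and 96.4 (cluster 8), so cluster 15 was above all of them, with a log2 ratio of 1.04 (0.87 to 1.20) over the 3 pooled. In Cre- RGCs its levels were 613 CPM in cluster 31, 228 in cluster 2 and 183 in cluster 8, so cluster 31 was high and cluster 2 low in both libraries.

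Stk32a, a serine/threonine kinase, was the most even of the 3. Its levels were 343 CPM (304 to 386) in cluster 15, 265 in cluster 2, 182 in cluster 31 and 154 in cluster 8, a log2 ratio of 0.57 (0.33 to 0.81). Cntnap3, a cell adhesion molecule of the contactin-associated family, stood at 118 CPM (95.96 to 145) in cluster 15 and 37.3, 57.9 and 19.3 CPM in clusters 2, 31 and 8, a log2 ratio of 1.43 (0.95 to 1.93). In GRCm39, Cntnap3 spans chr13:64883290-65051875 and Slc17a6 chr7:51271434-51320867. Slc17a6 lay at 83.9, 93.3, 60.01 and 116 CPM in clusters 15, 2, 31 and 8. Its log2 ratio was 0.03 (-0.43 to 0.48), so it marks the class and does not set cluster 15 apart. With each nucleus thinned to 1000 UMIs, D130079A08Rik was seen in 43.8% of cluster 15 nuclei, 36.4% of cluster 31, 24.3% of cluster 2 and 1.42% of amacrine nuclei (median depth before thinning 1736 UMIs). Without thinning it was seen in 66.8% of cluster 15 nuclei. Cntnap3 was seen in 11.98%, 6.06%, 3.24% and 1.21% after thinning, and in 23.96% of cluster 15 nuclei without it. When a nucleus could count a gene only once, the log2 ratio of D130079A08Rik was 0.29.

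**Figure D2:**
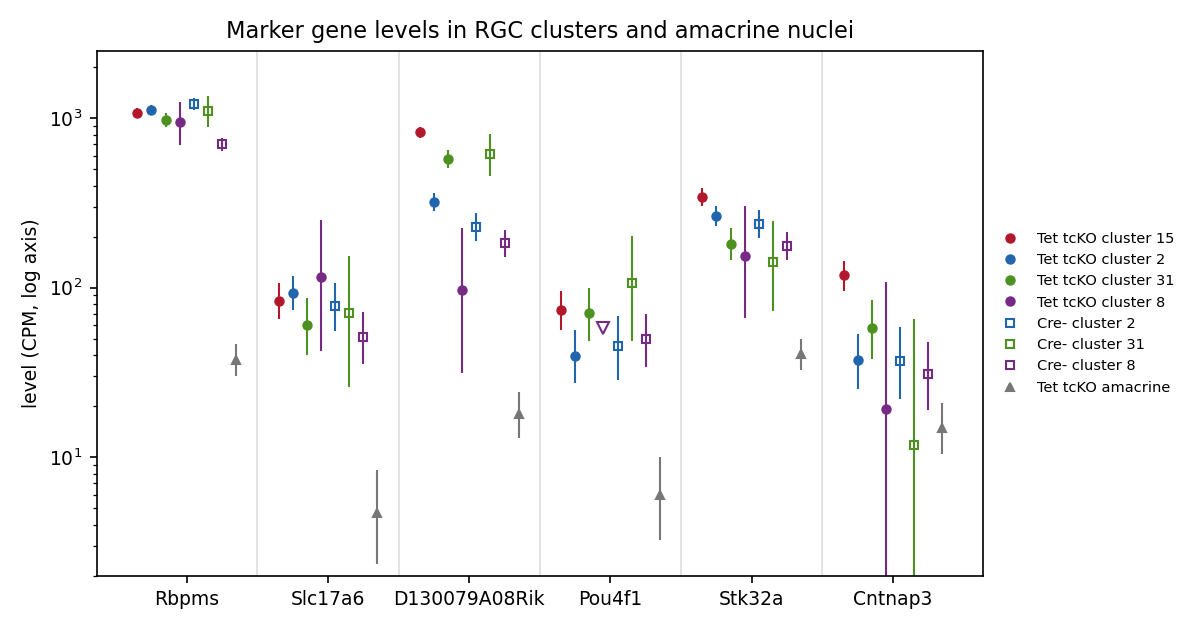
Level (CPM, log axis) of 6 genes in the 4 Tet tcKO RGC clusters (filled circles), 3 Cre- RGC clusters (open squares) and Tet tcKO amacrine nuclei (triangles), with exact 95% intervals cut off at the lower edge. The open inverted triangle is the limit that 0 UMIs of Pou4f1 allow. Rbpms is near 1000 CPM in RGCs, and D130079A08Rik is highest in cluster 15 at 824 CPM.

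D130079A08Rik lies beside Pou4f1 in the genome. In GRCm39 it spans chr14:104525867-104696773 on the minus strand, and Pou4f1 spans chr14:104699112-104705504 on the same strand, with 2.34 kb and 0 genes between them. The noncoding gene therefore starts downstream of Pou4f1. Pou4f1 levels were 74.04 CPM in cluster 15, 70.7 in Tet tcKO cluster 31 and 39.8 in Tet tcKO cluster 2, and it had 0 UMIs in Tet tcKO cluster 8, which allows 57.8 CPM. In Cre- they were 106 CPM in cluster 31, 49.6 in cluster 8 and 45.3 in cluster 2. Cluster 8 was too shallow to be placed for Pou4f1. Of the other 3 Tet tcKO clusters, 15 and 31 had the higher values for both genes, while the step from cluster 31 to cluster 15 was seen for D130079A08Rik (log2 ratio 0.52 (0.31 to 0.73)) and not for Pou4f1 (0.07 (-0.57 to 0.73)).

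Across all genes, cluster 15 differed more often downward than upward from the other Tet tcKO RGC nuclei. Of 10255 genes at 10 CPM or more in either population, 246 (2.4%) were at least 2-fold higher in cluster 15 and 630 (6.14%) at least 2-fold lower. The interval excluded 0 for 139 of the higher and 374 of the lower genes. The median log2 ratio over all genes was -0.12. Under median-of-ratios scaling, which takes out a shift of -0.10 on the log2 scale, the counts were 307 higher and 490 lower. The 15 highest ratios among genes at 100 CPM or more were led by Lrrc55os, but 145 of its 146 UMIs came from 1 nucleus, and it is left aside. In the 14 others, the summed level in cluster 15 was above that in every other Tet tcKO RGC cluster, as the choice of genes made likely.

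Several of these 14 genes act at the cell surface. Epha3, a receptor for ephrin-A guidance cues, stood at 105 CPM (83.8 to 129.7) in cluster 15 and at 31.1, 32.1 and 38.5 CPM in clusters 2, 31 and 8, a log2 ratio of 1.72 (1.17 to 2.29). It was seen in 53 of 217 nuclei. After thinning it was seen in 7.37% of cluster 15 and 5.06% of amacrine nuclei, which held 68.3 CPM, so its transcripts were not confined to RGCs. Epha3 spans chr16:63363897-63684538 on the minus strand. The adhesion molecules Cdh10 (a classical cadherin) and Pcdh19 (a protocadherin) stood at 131 and 123 CPM, against 58.5 and 48.5 in cluster 2 and 47.1 and 75.01 in cluster 31. Their log2 ratios were 1.28 (0.84 to 1.74) and 1.08 (0.64 to 1.53). Csmd3, a large membrane protein with CUB and sushi domains, stood at 1565 CPM (1479.8 to 1653) against 632 in cluster 2 and 984 in cluster 31. It was present in 190 of 217 nuclei, and its log2 ratio of 1.06 was 0.12 when a nucleus could count a gene only once.

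Others of the 14 have different roles. Trpc6, a cation channel, stood at 173 CPM (145 to 204), with 146 CPM in cluster 31 and 50.99 in cluster 2, so the step was from cluster 2 and hardly from cluster 31. Vwc2, a secreted protein that binds bone morphogenetic proteins, stood at 176 CPM against 77.1 and 64.3, but at 242 in amacrine nuclei. Fut9, a fucosyltransferase, had 109 CPM against 52.2 and 53.6. The log2 ratios of Plxdc2 (a membrane protein), Zfp654 (a zinc finger protein) and Rtl4 (derived from a retrotransposon) were 1.20, 1.36 and 1.03. Bcr, a regulator of small GTPases, had a log2 ratio of 1.14, and 109 of its 268 UMIs came from 1 nucleus. Its ratio was 0.58 without that nucleus and -0.13 when a nucleus could count a gene only once, so this result rests on few nuclei. Of the 15 highest genes, 8 overlap another gene on the same strand, and so do 5 of the 10 lowest, so overlap does not set the highest apart. The sources read here do not say how the authors' counting divided such reads.

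The lowest ratios included Kcnc1, a Kv3 potassium channel that repolarises neurons quickly. It stood at 70.3 CPM (53.3 to 91.1) in cluster 15 against 183, 139 and 251 CPM in clusters 2, 31 and 8. It was below all 3 clusters, with a log2 ratio of -1.27 (-1.72 to -0.85). The lowest of all was Coro6, an actin-binding coronin, at 40.7 CPM (28.03 to 57.2) against 180.3, 116 and 269.8 CPM, a log2 ratio of -1.98 (-2.56 to -1.45). Bnc2, a zinc finger protein, was low in cluster 15 (35.8 CPM) and cluster 31 (49.3) and high in cluster 2 (147).

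The remaining 6 of the 10 lowest genes lay between -1.63 and -1.11. They were the noncoding RNA Lncppara (-1.63), the gene 6330411D24Rik (-1.32), the kinase Map2k2 (-1.23), the RNA helicase Ddx46 (-1.21), the zinc finger protein Zbtb38 (-1.18) and the receptor phosphatase Ptprf (-1.11). The first, Lncppara, stood at 34.6 CPM in cluster 15 against 114 and 92.2 in clusters 2 and 31.

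Cluster 2 of the same library, of like depth, gave the comparison most even in depth. Of 10134 genes, 388 (3.83%) were at least 2-fold higher in cluster 15 and 619 (6.11%) at least 2-fold lower, around a median log2 ratio of -0.07. The interval excluded 0 for 193 of the higher and 299 of the lower genes. Ranked against cluster 2 alone, a ranking added after the values were seen, Prlr and Brinp3 led after Lrrc55os. Prlr, the prolactin receptor, stood at 109.8 CPM (88.2 to 135) in cluster 15 and 28.6 CPM in cluster 2, a log2 ratio of 1.94 (1.27 to 2.67). Brinp3, a neural protein of the BRINP family, stood at 433 CPM (389 to 481) against 113, a log2 ratio of 1.94 (1.60 to 2.29). Glra3, a glycine receptor subunit, stood at 144 against 43.5 CPM (1.73 (1.17 to 2.32)), and Cntn3, a contactin, at 163 against 63.4 (1.36 (0.88 to 1.86)). Khdrbs2, an RNA-binding splicing factor, stood at 813 against 326 (1.32 (1.11 to 1.53)).

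Several of these genes stood at a like level in cluster 31. There Prlr stood at 107 CPM, Brinp3 at 405, Glra3 at 129, Cntn3 at 141 and A830018L16Rik at 294, the last against 321 in cluster 15 and 116 in cluster 2. Of 2086 genes at 100 CPM or more, 34 were 2-fold higher in cluster 15 than in cluster 2, and 44 were 2-fold higher than in cluster 31. Of the 34, 16 differed by less than 1.5-fold from cluster 31 and 8 were also 2-fold above it. The share of all 2086 genes within 1.5-fold of cluster 31 is not given here, so the 16 were not read as a high share. Amacrine nuclei held 339 CPM of Brinp3 and 218 of Glra3, so neither is particular to RGCs.

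On the other side, a set of genes that was low in cluster 15 was high in cluster 2. Syt2, a synaptic vesicle calcium sensor, stood at 24.7 CPM (15.1 to 38.1) in cluster 15, 136 in cluster 2 and 23.6 in cluster 31, a log2 ratio over cluster 2 of -2.46 (-3.22 to -1.76). Sparcl1, a secreted matrix protein, stood at 28.4, 103 and 40.7 CPM. Sdk2, an adhesion molecule of retinal layering, stood at 88.8, 233 and 105. Il1rapl2, a synaptic receptor of the interleukin 1 family, stood at 309, 691 and 169. In each of these 4 genes, Cre- cluster 2 was high as well, at 132, 125, 261 and 940.2 CPM.

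Against cluster 31 the difference was wider. Of 10599 genes, 487 (4.59%) were at least 2-fold higher in cluster 15 and 1274 (12%) at least 2-fold lower, around a median of -0.19. The interval excluded 0 for 170 of the higher and 591 of the lower genes. Sema3a, a secreted axon repellent, was at 228 CPM (197 to 264) in cluster 15 and 49.3 in cluster 31, a log2 ratio of 2.21 (1.58 to 2.90), while cluster 2 held 240.02. Hs3st4, a heparan sulphate sulphotransferase, stood at 222, 77.2 and 240.02 CPM in clusters 15, 31 and 2, and Trhde, a peptidase, at 184, 68.6 and 201. Gabrb2, a GABA-A receptor subunit, stood at 179, 72.9 and 121. Sema3a, Hs3st4 and Trhde were thus shared with cluster 2, while Epha3 and Zfp654 exceeded both clusters, with log2 ratios over cluster 31 of 1.71 (0.90 to 2.61) and 1.62 (0.94 to 2.37).

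To ask which RGC type the cluster resembles, 50 genes linked to single RGC types or groups of types were examined. Most were close to absent. Only 12 were seen in 20 or more of the 217 nuclei. Opn4, the photopigment melanopsin of intrinsically photosensitive RGCs, gave 2 UMIs, Eomes (TBR2), a factor of the same cells, 5, and Tbr1 5. Of the alpha RGC genes, Spp1 (osteopontin) and Kcng4 each gave 1 UMI and Fes 0. Coch gave 2, Mmp17 2, Penk 2, Neurod2 4 and Calca 0. These counts come from 810359 UMIs, in which 0 UMIs allow at most 3.70 CPM.

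The type genes that were well detected did not belong to 1 type. Foxp2, a factor of F-RGCs, stood at 98.7 CPM (78.3 to 123) in cluster 15, 47.3 in cluster 2 and 72.9 in cluster 31, with 34.2 in amacrine nuclei. It was not particular to RGCs, at 81.1 CPM in Tet tcKO cones, 115 in bipolar and 684 in Müller nuclei, and Cre- cluster 31 held 129.7 CPM (64.7 to 232). Its log2 ratio was 1.06 (0.49 to 1.66) over cluster 2 and 0.44 (-0.16 to 1.06) over cluster 31. Over the 3 clusters pooled it was 0.82, and 0.31 when a nucleus could count a gene only once. Foxp1, which F-RGCs also carry, stood at 304 CPM against 271 and 253. Irx4, which divides F-RGCs, was at 5 UMIs.

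A second group of type genes was shared with cluster 2. Tfap2d stood at 98.7 CPM (78.3 to 123) in cluster 15, 80.8 in cluster 2 and 36.4 in cluster 31. Igf1, insulin-like growth factor 1, stood at 151 CPM (125 to 179.8), 169 and 53.6. Cdh6, a cadherin of direction-selective RGCs, stood at 116 CPM (93.7 to 142), 147 and 53.6. Their log2 ratios over cluster 31 were 1.44 (0.67 to 2.29), 1.49 (0.86 to 2.17) and 1.11 (0.47 to 1.81), and over cluster 2 0.29 (-0.20 to 0.78), -0.17 (-0.53 to 0.20) and -0.34 (-0.75 to 0.06). Cdh6 was no higher than in amacrine nuclei (117 CPM).

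Counted by list, no type was raised as a whole. Against the other Tet tcKO RGC nuclei, 3 ipRGC genes reached 10 CPM, each on 1 side only, so the filter set the sign of each ratio. Tbx20 stood at 17.3 CPM against 8.32, Trpc7 at 16.04 against 9.83 and Eomes at 6.17 against 14.4. All 3 intervals included 0, and their median log2 ratio of 0.71 was not read. In the F-RGC list, Coch (2.47 against 16.6 CPM) likewise passed only through the other clusters. The 3 F-RGC genes had a median of 0.24, the 5 direction-selective genes 0.09, the 2 T-RGC and J-RGC genes -0.08 and the 11 other type genes 0.25, with 1 at least 2-fold higher and 2 lower.

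Of the alpha RGC genes, only Nefh reached 10 CPM in cluster 15. It was lower there (18.5 CPM) than in cluster 2 (37.3) and not lower than in cluster 31 (17.1). Over the pooled clusters, Nefh and Kit had log2 ratios of -0.71 and -1.69, with 1 interval below 0, beside 11.2% of all genes. Kit, at 4.94 CPM in cluster 15, passed the filter only through the other clusters, so its ratio could only be below 0. Against cluster 2, Nefh had a log2 ratio of -1.01, with its interval below 0, as for 8.34% of all genes. Kit (4.94 against 17.4 CPM) and Spp1 (1.23 against 12.4) passed only through cluster 2. Their ratios could only be below 0 and were not read. Against cluster 31, Nefh was above 0 and Kit, which passed only through cluster 31, below. There 0 intervals lay below 0, beside 12.1% of all genes. Pvalb, the calcium buffer parvalbumin, gave 1 UMI in cluster 15 (1.23 CPM (0.0312 to 6.88)), against 23.6 CPM (14.2 to 36.9) in cluster 2. Other type genes differed between the neighbours. Prkcq, a protein kinase C, stood at 17.3 CPM (9.45 to 28.99) against 58.5 in cluster 2 and 8.57 in cluster 31. Col25a1, a membrane collagen in the direction-selective list, stood at 23.4 CPM (14.1 to 36.6) against 55.96 and 49.3.

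**Figure D3:**
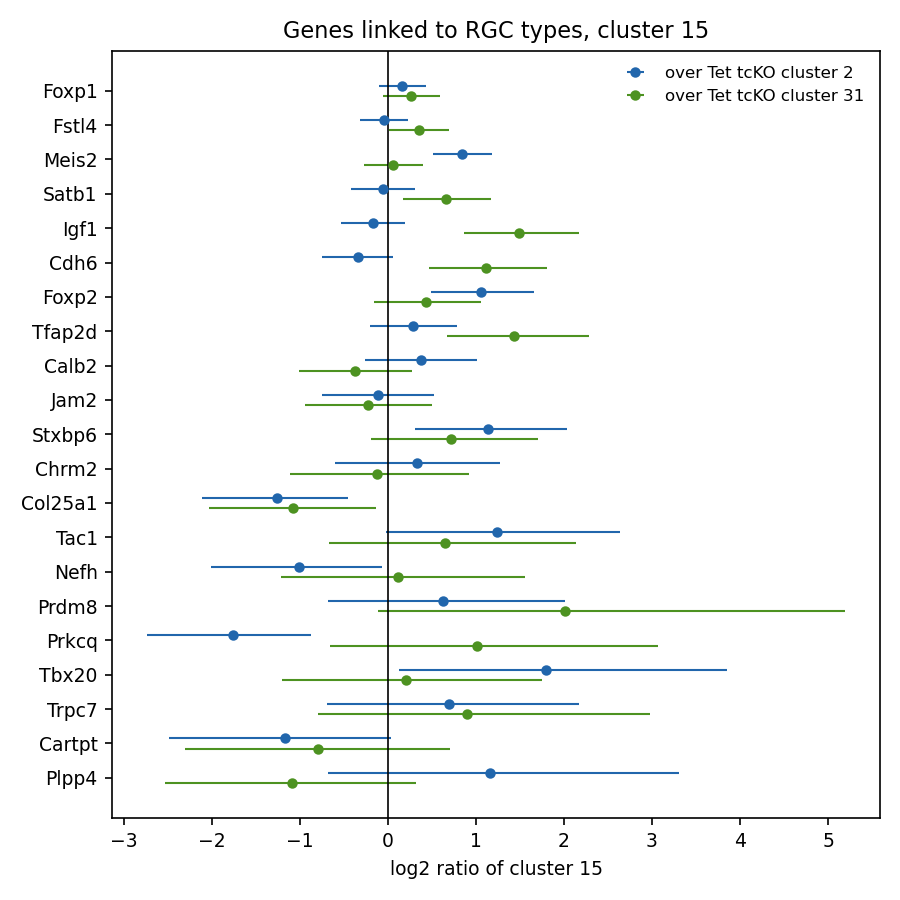
Log2 ratio of cluster 15 over Tet tcKO cluster 2 (blue) and over Tet tcKO cluster 31 (green) for type-linked genes at 10 CPM or more in cluster 15, with 95% intervals, ordered by UMIs in cluster 15 from the top. Foxp2 lies to the right over cluster 2, Igf1, Tfap2d and Cdh6 lie to the right over cluster 31, and Col25a1 lies to the left over both.

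Within cluster 15, Foxp2 and Igf1 showed no clear relation. Foxp2 was seen in 32 and Igf1 in 61 of 217 nuclei. Of these 2 genes, 131 nuclei had none, 79 had 1 and 7 had both. Igf1 was seen in 21.9% (9.28 to 39.97) of nuclei with Foxp2 and 29.2% (22.8 to 36.3) of those without. Since a gene of this level is missed in many nuclei that express it, the 131 nuclei cannot be called negative. After thinning to 1000 UMIs the shares were 8.76% and 7.83%, against 3.24% and 3.03% in amacrine nuclei.

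The clearest contrast was between nuclei with Igf1 and those with Prlr. Nuclei with Igf1 carried D130079A08Rik in 44.3% (31.5 to 57.6), against 75.6% of those without Igf1, although nuclei with Igf1 were deeper (medians of 4191 and 2962.5 UMIs). Nuclei with Igf1 carried Cdh6 in 31.1% (19.9 to 44.3), against 12.8% of those without, and Pcdh19 in 42.6%, against 23.1%. Of the 44 nuclei with Prlr, 90.9% (78.3 to 97.5) carried D130079A08Rik, 79.5% carried Brinp3 and 4.55% carried Cdh6. Without Prlr these shares were 60.7%, 52.0% and 21.4%, at nearly equal depth (3217.5 and 3179 UMIs). These are shares of nuclei from 1 library, chosen among many pairs.

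Gene groups of RGC function were then compared. Over the other Tet tcKO RGC clusters, the interval lay above 0 for 6.36% of all genes and below 0 for 11.2%. Each count of intervals in the groups is to be read beside these shares, and also beside the number of UMIs, since genes with more UMIs have narrower intervals. GABA and glycine receptor subunits, which receive amacrine input, had the highest median of the groups over the pooled clusters, but not over cluster 31, where cadherins were at 0.58. Of 18 measured, 9 intervals lay above 0, with none below. Their median was 0.54, beside -0.12 for all genes, and 0 were 2-fold higher. Over clusters 2 and 31 alone the medians were 0.44 and 0.43. Gabrg1 stood at 75.3 CPM (57.6 to 96.7) in cluster 15, 47.3 in cluster 2 and 23.6 in cluster 31. Gabra2 stood at 338 CPM (299 to 381), 259 and 150.02, and Glra2 at 59.2 CPM (43.7 to 78.5), 41.04 and 25.7. Gabbr1 and Gabbr2, the metabotropic GABA-B subunits, had ratios of -0.05 and -0.10.

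Adhesion molecules of the contactin families were next over the pooled clusters. Of 13, 8 intervals lay above 0 and 2 below, with a median of 0.40. Cntnap2, a membrane partner of contactins, stood at 4587 CPM (4441 to 4737) in cluster 15, 3145 in cluster 2 and 2389.6 in cluster 31, a log2 ratio of 0.70 (0.64 to 0.77). Cntn5, an adhesion molecule of RGC dendrite layering, stood at 2445 CPM (2338 to 2555), 1606 and 1978, a ratio of 0.50 (0.41 to 0.58). Cntnap1 and Cntn2, which act at myelinated axons, were lower, at -0.81 (-1.40 to -0.25) and -0.70 (-1.34 to -0.10). The contactin median was 0.055 when a nucleus could count a gene only once.

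Of 13 cadherins, 6 intervals lay above 0 and 2 below, with a median of 0.30. Besides Cdh10, Cdh20 stood at 184 CPM (156 to 216) against 84.6 and 120.02 CPM in clusters 2 and 31, and Cdh8 at 142 CPM (117 to 170.3) against 102 and 62.2. Cdh11 stood at 241 CPM, near 249.97 in cluster 2 and above 107 in cluster 31.

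Axon guidance genes followed, with 12 of 34 intervals above 0, 4 below and a median of 0.23. Dcc, the netrin receptor, stood at 2411 CPM (2306 to 2521), 1552 and 1309 in clusters 15, 2 and 31, a ratio of 0.75 (0.66 to 0.84). Unc5c, a repulsive netrin receptor, stood at 589.9 CPM (538 to 645), 351 and 330.05, a ratio of 0.78 (0.59 to 0.97). Among Eph receptors, Epha3, Epha5 (0.55 (0.37 to 0.72)) and Epha6 (0.48 (0.36 to 0.60)) were higher, and Ephb1 (-0.47 (-0.75 to -0.20)) and Ephb2 (-0.88 (-1.28 to -0.49)) lower. The interval of Epha4 held 0, at 0.06 (-0.32 to 0.44). Robo1, a Slit receptor, was at -0.42 (-0.65 to -0.20) and Robo2 at 0.45 (0.33 to 0.58).

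Glutamate receptors were mixed, with 11 of 24 intervals above 0, 5 below and a median of 0.09. The AMPA subunit Gria1 (0.68 (0.40 to 0.95)), the kainate subunit Grik2 (0.60 (0.42 to 0.78)), the NMDA subunit Grin3a (0.97 (0.58 to 1.36)) and the metabotropic Grm5 (0.66 (0.44 to 0.88)) were higher. Grik5 (-0.59 (-0.95 to -0.23)), Grin1 (-0.31 (-0.59 to -0.04)) and Grin2a (-0.20 (-0.40 to -0.00)) were lower. Of 7 acetylcholine receptors, Chrm3 was higher (0.73 (0.52 to 0.95)) and Chrnb3 lower (-0.52 (-0.96 to -0.09)), with a median of -0.29.

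Of 31 sodium and potassium channel genes, 6 intervals lay above 0 and 8 below, with a median of -0.10, close to that of all genes. Kcnd2, a Kv4 channel, was higher (0.52 (0.42 to 0.61)) and Kcnd3, of the same family, lower (-0.58 (-0.81 to -0.35)). Kcnq5, of the M-current family, was higher (0.80 (0.42 to 1.19)). Of 16 calcium channel genes, 2 intervals lay above 0 and 4 below, with a median of -0.02. Cacna1a, the pore of P/Q-type channels, stood at 753 CPM (694 to 815) in cluster 15 and at 1229.96, 1256 and 1869.6 in clusters 2, 31 and 8, a ratio of -0.75 (-0.88 to -0.61).

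Axon and neurofilament genes had the lowest median of the plotted groups over the pooled clusters. Of 12, 4 intervals lay below 0 and none above, with a median of -0.40. Over cluster 31 it was -0.19, close to the median of all genes there, and acetylcholine receptors (-0.30) and DNA methylation genes (-0.21) were lower. Nefm, the medium neurofilament chain, stood at 59.2 CPM (43.7 to 78.5) against 108, 70.7 and 193 CPM. Uchl1 stood at 75.3 CPM (57.6 to 96.7) against 126, 118 and 231, and Mapt, the protein tau, at 544 CPM (495 to 597) against 660.4, 804 and 1060.1. The interval of Gap43, a growth cone protein, held 0, at 0.02 (-0.44 to 0.46). Within gene-length bins, described below, the median of this group was -0.16.

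**Figure D4:**
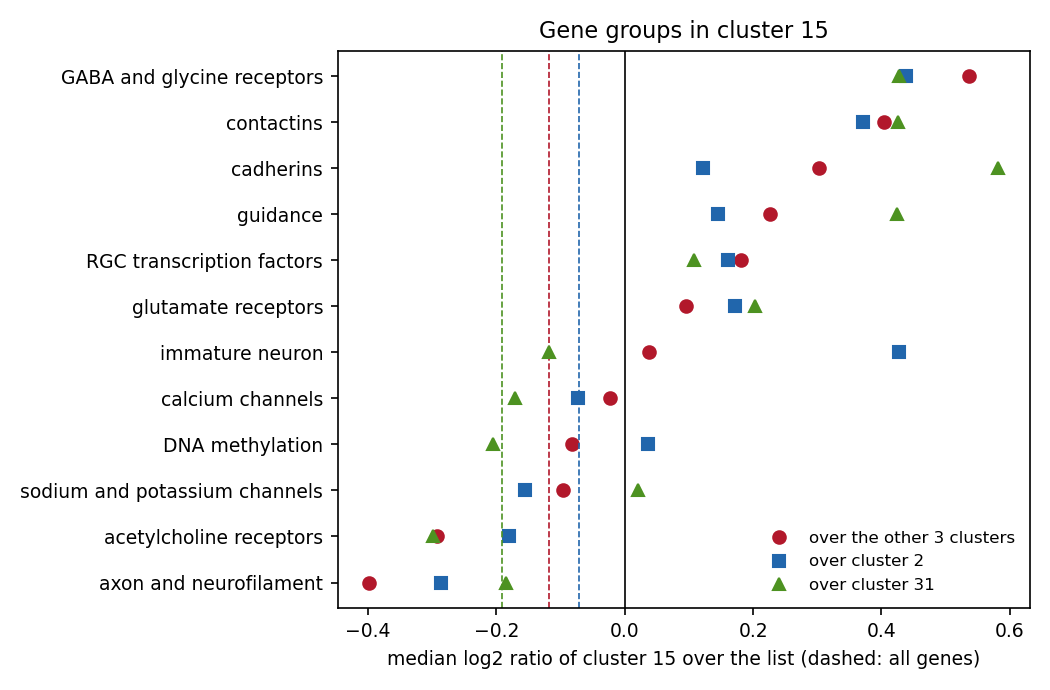
Median log2 ratio of cluster 15 over the 3 other Tet tcKO RGC clusters (circles), cluster 2 (squares) and cluster 31 (triangles) in 12 groups of genes, each with 6 or more members at 10 CPM. Dashed lines mark the median of all genes in the same colour. GABA and glycine receptors are at 0.54 and axon and neurofilament genes at -0.40 over the 3 other clusters.

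Transcription factors of RGCs had a median of 0.18 over 30 genes, with 9 intervals above 0 and 2 below. Besides Foxp2, Tfap2d and Pou4f1, these included Isl1 (0.39 (0.07 to 0.71)), Meis1 (0.43 (0.15 to 0.71)) and Meis2 (0.48 (0.21 to 0.75)), while Rbfox3, a neuronal splicing factor listed with them, was at -0.58 (-0.80 to -0.36). Sox11, a factor of immature and injured neurons, stood at 38.3 CPM (25.99 to 54.3) in cluster 15, 16.2 in cluster 2 and 15.002 in cluster 31, a ratio of 1.34 (0.48 to 2.23). Dcx, a marker of young neurons, stood at 59.2 CPM (43.7 to 78.5), 42.3 and 30.004. Atoh7, the factor that starts RGC genesis, gave 2 UMIs, and the 7 genes of the immature list had a median of 0.04. Over cluster 2 alone the immature median was 0.43 (6 genes), and over cluster 31 alone -0.12 (7 genes). The injury genes Atf3, Sprr1a and Ecel1 gave 0 UMIs, and the 4 injury genes measured had a median of 0.23. Over cluster 2 alone the injury median was 0.85 (4 genes), and over cluster 31 alone -0.21 (3 genes). The 3 vesicular transporters measured had a median of -0.28, none with an interval off 0.

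Genes of DNA methylation had a median of -0.08 over 9 genes. Tet1, Tet2 and Tet3 stood at 41.96 CPM (29.1 to 58.6), 114 CPM (91.5 to 139) and 112 CPM (90.4 to 138) in cluster 15. In Cre- cluster 2 they stood at 59.7, 156 and 123 CPM. The counts cover whole genes, so they do not show whether the floxed exons were lost. Dnmt3a, a DNA methyltransferase, stood at 359 CPM (319 to 403), below 471, 540.1 and 597 CPM in clusters 2, 31 and 8.

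Gene length moved with these ratios. Among genes split into 5 equal bins of length, the median log2 ratio over the other Tet tcKO RGC clusters went from -0.29 in the shortest (median length 8.20 kb) through -0.19, -0.14 and -0.07 to 0.02 in the longest (192 kb). Against cluster 31 it went from -0.51 to 0.09, and against cluster 2, of like depth, from -0.14 to -0.01. Among genes at 50 CPM or more, the 35 that were 2-fold higher had a median length of 155 kb and the 71 that were lower 26.9 kb, against 75.9 kb for all. Centred within 20 bins of length, 364 genes were 2-fold higher and 413 lower. The GABA and glycine receptor median was then 0.57, the contactin median 0.25 and the RGC marker median -0.09, which was -0.27 before. The part of gene length in single genes was not tested.

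**Figure D5:**
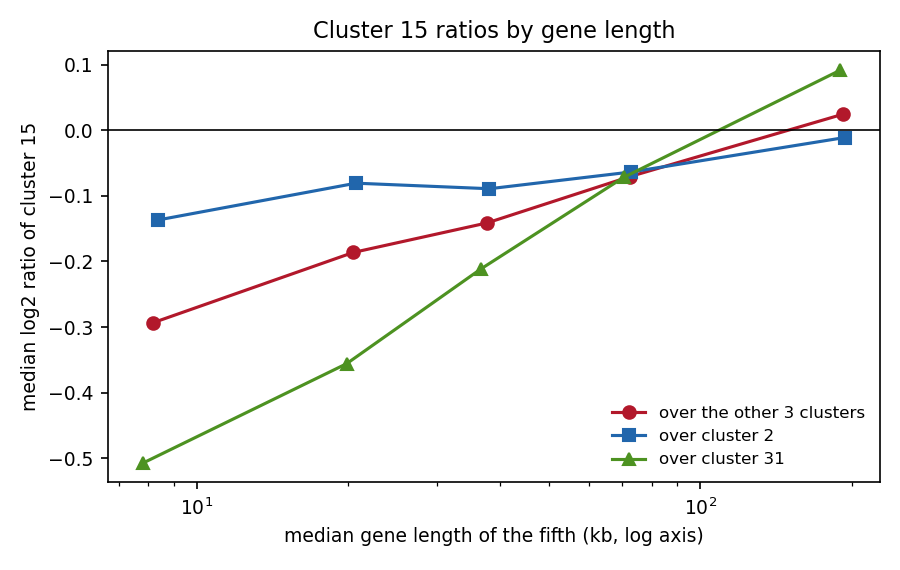
Median log2 ratio of cluster 15 in 5 bins of gene length (kb, log axis) over the 3 other Tet tcKO RGC clusters (circles), cluster 2 (squares) and cluster 31 (triangles). The line over cluster 31 climbs from -0.51 to 0.09 and the line over cluster 2 from -0.14 to -0.01.

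The Cre- library showed where the leading genes of cluster 15 stood in the control RGC clusters 2, 8 and 31. The 4 Cre- nuclei of cluster 15 were left out of this comparison and are described below. For 13 of the 14 leading genes, the level in Tet tcKO cluster 15 was above that in each of the Cre- RGC clusters 2, 8 and 31. The median log2 ratio over the highest of these clusters was 0.88. Because the 14 genes were chosen for high ratios in cluster 15, that choice made both values likely to be high. For Rtl4, Cre- cluster 31 was at 212 CPM and cluster 15 at 211, and for Cdh10 they were at 129.7 and 131. Epha3 stood at 34.97, 20.2 and 23.6 CPM in Cre- clusters 2, 8 and 31, and Cntnap3 at 37.03, 31.02 and 11.8. For the same 14 genes, Tet tcKO cluster 2 over Cre- cluster 2 had a median log2 ratio of 0.07, from -0.63 (Cdh10) to 1.24 (Pcdh19). The libraries differ in depth and in genotype together, which cannot be told apart.

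The 4 Cre- nuclei of cluster 15 held 14632 UMIs in all, with 6179, 3368, 3113 and 1972 each. Rbpms was seen in all 4, with 9, 2, 5 and 4 UMIs. D130079A08Rik gave 6 UMIs in the deepest nucleus and 1 in another, and Cntnap3 gave 0. The deepest nucleus also held 9 of 9 Epha3 UMIs and 22 of 23 Brinp3 UMIs. Csmd3 was seen in all 4 nuclei, with 13, 3, 12 and 1 UMIs. With 4 nuclei, no comparison of cluster 15 between the libraries was made.

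Levels over the whole transcriptome were then correlated between populations. The Pearson correlation of log2(CPM + 10) was 0.952 with Tet tcKO cluster 2 over 10134 genes, 0.931 with Tet tcKO cluster 31 over 10599, and 0.924 with Cre- cluster 2 over 10364. It was 0.917 with Tet tcKO amacrine cluster 12 and 0.888 with Cre- cluster 8. The shallow RGC clusters were lower, at 0.825 for Cre- cluster 31 and 0.723 for Tet tcKO cluster 8. Both were below Tet tcKO bipolar cluster 39 (0.885), so the measure did not follow the RGC name alone. These are correlations across genes, which are not independent, and they rise with the depth of the population and with a shared library, so small steps in this order were not read.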

How the data were processed

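Nuclei of whole retinas were profiled by single-nucleus RNA-seq on a particle-based platform, with 1 library of Cre- and 1 of Tet tcKO mice. Per the labels and the methods of the study, reads were processed with pipseeker 3.3.0 on GRCm39, ambient RNA was removed with CellBender at a cell probability of 0.99, and nuclei with 500 to 10000 transcripts and under 20% mitochondrial transcripts were kept in Monocle3. The deposited matrices therefore hold whole counts of UMIs after ambient removal. The mitochondrial percent, the size factor (a ratio of totals), the cluster and the cell type of each nucleus are the authors' own. The deposited signal per genotype in the gene table was not used for any result, and 0 columns of other samples were present.

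From these counts, UMIs were summed per cluster and library and scaled to CPM (Python 3.11.15, pandas 2.3.3, numpy 2.4.6, scipy 1.17.1, scanpy 1.11.5). Genes at 10 CPM or more in either population were compared, and a 2-fold difference was counted as called. In ratios, 3 counts stood in for a count of 0. Intervals are exact at 95%: Poisson for levels, conditional for ratios and Clopper-Pearson for shares. UMIs were thinned to 1000 per nucleus for shares of nuclei with a gene. Doublet scores came from Scrublet in scanpy, which called 0 nuclei and so did not work as a caller. The ratio intervals, the recovery of 2-fold differences and a scaling factor were tested on simulated counts. Those counts held counting error only, with no spread between nuclei, so coverage in the data themselves was not tested. Thinning, doublet scores and length bins were not tested in this way.

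Members, gene lists and rules were chosen with earlier results of these data known. Named genes are the 15 highest and 10 lowest ratios at 100 CPM or more, the 4 markers given for the cluster, members of 34 lists of marker, type and functional genes, and the leading genes of the other RGC clusters; some of them are not reported here. Rankings against cluster 2 or 31 alone, and the pairs of genes compared within nuclei, were chosen after values were seen. Gene positions and lengths are from GENCODE vM39, in which 31681 of 32227 gene IDs matched. The tests of single nuclei used by the study treat nuclei as replicates and were not repeated.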

Additional observations from a re-analysis of the deposited data

How the results depend on the processing

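Of the counts and shares recomputed under other settings, 21 stayed within 1.5-fold or 1 counting interval of the reported value and 9 moved, of the medians of gene groups 222 stayed and 9 moved, and of the single genes 692 stayed, 39 moved and 2 turned. The 246 genes 2-fold higher than the other Tet tcKO RGC clusters became 610 with a filter at 1 CPM, 548 when a nucleus counted a gene only once, and 534 with the other clusters weighted equally. They were 388 against cluster 2 alone and 487 against cluster 31 alone. The 630 lower genes became 1503 with the filter at 1 CPM, 1326 with equal weights, 1274 against cluster 31 alone and 413 after centring within bins of gene length. A lower filter admits genes with few counts, and equal weights give the shallow cluster 8 more say. The causes of the other moves were not tested. The contactin median of 0.40 was 0.055 once per nucleus and 0.73 with equal weights, the vesicular transporter median of -0.28 was -0.85 with equal weights, and the cadherin median of 0.30 was 0.58 against cluster 31. Bcr turned to -0.13 once per nucleus, and Prkcq to 1.01 against cluster 31, whose counts of it are few. The comparisons with cluster 2 alone and cluster 31 alone and the length bins were chosen after seeing the data. No paired analysis was possible because each genotype had 1 library, and leaving out a replicate was not possible for the same reason. Depth limits most the type genes at a few CPM and the 29 nuclei of Tet tcKO cluster 8.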
